A study of Mus musculus with 139 samples.

Results

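Oncomodulin is the product of Ocm, which was followed here in single hair cells of the mouse cochlea. Ocm was 1 of the 55335 lines of the deposited count table, and its line was found by its gene identifier (ENSMUSG00000029618.13). Earlier results of these data were known when Ocm was chosen. The table held cells from animals at postnatal days 14 to 16, each sequenced as 1 library. The labels gave a cell its type, inner hair cell (IHC) or outer hair cell (OHC), and its region of the cochlear spiral, apex, middle or base. The 52 OHCs comprised 21 apical, 23 middle and 8 basal cells, and the 87 IHCs comprised 34, 34 and 19. All groups shared tissue and age. The sources used here give no strain, treatment, method of isolation or animal for any cell. Each group therefore counted as 1 sample, no test between groups was run, and differences have no replicate check. Cells are called below by their group and a number that only names them.

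Oncomodulin is a small calcium-binding protein of the parvalbumin family, which binds calcium through EF-hands, a pair of helices joined by a loop that holds the ion. In the cochlea it is known as a protein of OHCs, the cells that change length and amplify the vibration of the organ of Corti, and it is widely used to mark them. IHCs, which pass sound signals to the auditory nerve, are known for other calcium buffers of the same superfamily, among them parvalbumin itself (Pvalb) and the calretinin gene Calb2.

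Ocm lies on the minus strand of chromosome 5, at chr5:144019804-144026670 of GRCm38 in the GENCODE M21 annotation, with 3 transcripts and 733 bases of exon. No exon of another gene overlapped these exons. The RefSeq model of the same assembly reaches 23970 bases further upstream, to 144050640, and reads from that stretch fall outside the GENCODE gene. Pvalb, the paralog in this family, lies at chr15:78191114-78206400, also on the minus strand, with 1041 bases of exon. Reading frames of 330 bases (Ocm) and 333 bases (Pvalb) were identical at 197 of 333 aligned columns, or 59.2%, and the longest stretch shared without a mismatch was 15 bases. The calcium-binding loops show how far the genes differ where their function is most alike. They were found in the translated GENCODE transcripts by the canonical pattern of an EF-hand loop, are printed in the sense of the mRNA, 5′ to 3′, and carry in capitals the bases that differ between both genes.
Ocm, first loop (chr5:144024433-144024468): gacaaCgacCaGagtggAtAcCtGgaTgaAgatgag
Pvalb, first loop (chr15:78202526-78202561): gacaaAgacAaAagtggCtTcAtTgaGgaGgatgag
Ocm, second loop (chr5:144020100-144023857, a span that holds an intron): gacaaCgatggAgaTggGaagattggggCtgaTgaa
Pvalb, second loop (chr15:78191693-78201259, a span that holds an intron): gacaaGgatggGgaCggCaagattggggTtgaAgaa
The first loop takes codons 52 to 63 in both genes, where 9 of 36 bases and 5 of 12 residues differ. The second starts at codon 91, where 6 of 36 bases and 3 of 12 residues differ.

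Total counts per cell ran from 71027 to 13576942. Median totals were 4092895 (apex), 1871530 (middle) and 2522426 (base) in OHCs, and 3597253, 6158035 and 6842128 in IHCs. The titles number the cells in a lower series up to 100 (81 cells) and a higher series above it (58 cells), numbers whose meaning no source used here states. As a check of the labels, Slc26a5 (prestin, the motor protein of OHCs) and Ikzf2 (a transcription factor of OHCs) were set against Otof (otoferlin, the calcium sensor of IHC synapses) and Slc17a8 (the vesicular glutamate transporter of IHCs). In 9 cells the markers of the other type were higher in sum than those of the labelled type: apical OHCs 8, 14 and 18, middle OHCs 1 and 12, apical IHCs 8, 18 and 22, and middle IHC 30. The check compares the 2 sums alone, so that a cell with little of either passes it. Basal OHC 8, for one, passed with 0.352 CPM of Ikzf2 and no count of Slc26a5, Otof or Slc17a8. Results are given with all cells, and some of them also without these 9.

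In the apex, Ocm was high in nearly every OHC and low in most IHCs. In CPM, a count scaled to the total of its cell, single cells ran from 30.8 to 19865 in the 21 OHCs, with a median of 4711, and from 0 to 2530 in the 34 IHCs, with a median of 55.8. No IHC reached the OHC median, 16 of 21 OHCs lay above every IHC, and 1 OHC, cell 21, lay below the IHC median. In 94.4% of all pairs of an apical OHC and an apical IHC the OHC was higher. Summed over cells and scaled with TMM factors, Ocm stood at 5391 CPM in OHCs (95% Poisson interval 5376 to 5405) and 298 CPM in IHCs (295 to 301). The intervals of levels and shares cover counting error only, since no molecular identifiers are named. The OHC level was 18.1-fold that of IHCs (17.9 to 18.3), or 4.17 on the log2(CPM + 1) scale, rank 556 from the top among 15004 genes with at least 5 CPM in 1 or more groups. Of those genes 28.6% were 2-fold or more higher in apical OHCs. Taking the median cell of each group, scaled by the TMM factor of its group, in place of the sum gave a log2 difference of 6.46.

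In the middle, the types differed by a similar ratio while the OHCs themselves were split. The 23 middle OHCs ran from 0 to 8930 CPM with a median of 127, and the 34 middle IHCs from 0 to 2421 with a median of 1.19. Of the OHCs, 8 stood at 1000 CPM or more, each above every middle IHC, 9 stood under 100, and 2 had no Ocm count. Middle IHCs 7, 11, 31 and 32 exceeded the OHC median, and the OHC was higher in 77.4% of pairs. Pooled levels were 3294 CPM (3284 to 3304) against 139.7 (138 to 141), a 23.6-fold difference and 4.55 on the log2 scale on which 20.7% of genes were 2-fold or more higher in OHCs. Middle IHC 7 held 62.1% of the Ocm counts of its group, and without it the log2 difference was 5.89. With cells weighted equally, under the same scaling, it was 3.12.

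In the base, the ratio of the sums was the highest of the 3 regions and rested on the fewest cells. The 8 basal OHCs stood at 0, 1.76, 8.61, 14.04, 61.6, 564, 2637 and 9533 CPM. The 19 basal IHCs ran from 0 to 23.7 CPM with a median of 0, and 11 of them had no Ocm count. Only OHCs 2, 3, 4 and 5 lay above every basal IHC, and the OHC was higher in 84.2% of pairs. The pooled level was 4413 CPM (4384 to 4443) in OHCs and 1.30 CPM (1.11 to 1.51, from 171 counts) in IHCs, 3399-fold apart (2925 to 3972). That log2 difference of 10.91 ranked 4 of 15004, and 16.1% of genes were 2-fold or more higher in basal OHCs. OHC 3 held 95% of the Ocm counts of its group. Without it the pooled level of the other 7 was 288.5 CPM, and the log2 difference was 6.96. Between the median cells the base did not stand out, at 5.78 against 6.46 in the apex and 5.57 in the middle.

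**Figure D1:**
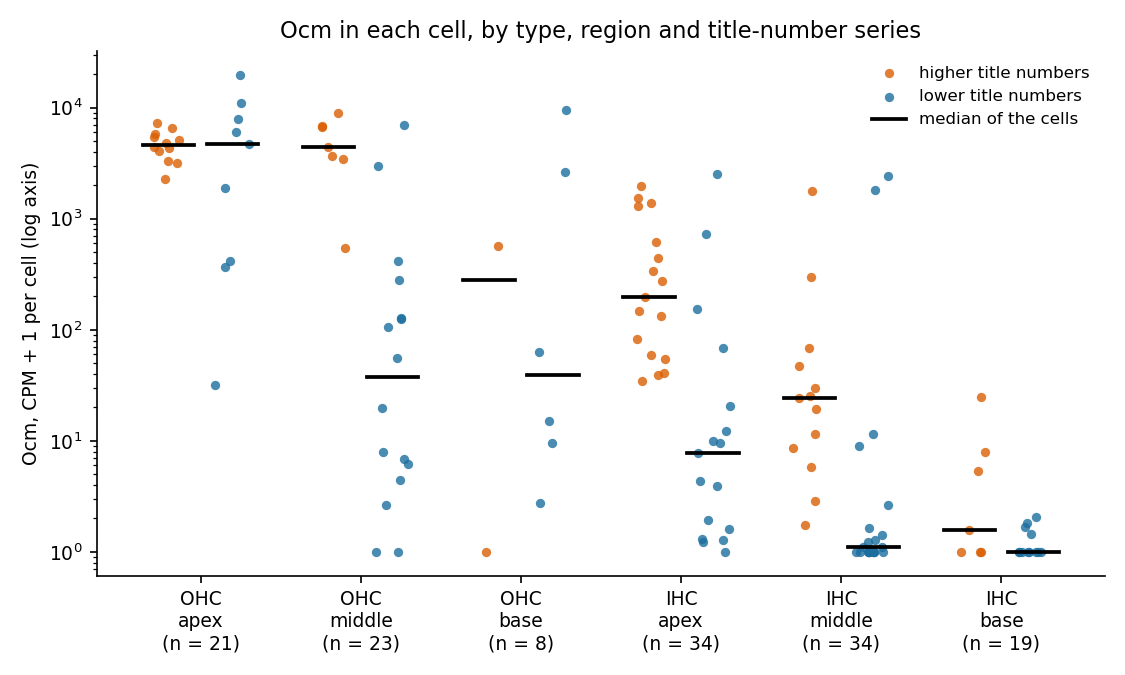
Each point is 1 cell, placed by its group on the x axis and by Ocm in CPM + 1 on a logarithmic y axis, with cells of the higher title numbers on the left of each group and those of the lower numbers on the right. Black bars are medians. Apical OHCs of both series have medians near 4619 and 4711 CPM, whereas in middle OHCs and in apical and middle IHCs the lower numbers sit below the higher ones.

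Ordered by pooled level, the groups ran from apical, basal and middle OHCs to apical, middle and basal IHCs. Ordered by the median cell, middle OHCs came before apical IHCs, and basal OHCs, at 37.8 CPM, came between apical IHCs (55.8) and middle IHCs (1.19). The full ranges of all neighbours in either order overlapped. Between the quartiles apical OHCs spanned 3199 to 6012 CPM, above the 6.90 to 1082 of basal OHCs and overlapping the 6.38 to 3553 of middle OHCs. Apical IHCs spanned 7.202 to 322, middle IHCs 0 to 22.2 and basal IHCs 0 to 0.732 CPM, so that these neighbours overlapped as well.

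Along the spiral, the IHCs showed a graded level of Ocm, highest in the apex. The log2 difference of pooled Ocm between basal and apical IHCs was -7.02, with apical IHCs 229.5-fold higher (198 to 268). The value was the fifth lowest of 15004 genes, of which 31.5% were 2-fold or more lower in basal IHCs. Middle IHCs lay between, at a log2 difference of -1.09 from the apex, and the base at -5.94 from the middle. Shares of cells with an Ocm count followed the same order, with 33 of 34 cells in the apex (97.1%), 24 of 34 in the middle (70.6%) and 8 of 19 in the base (42.1%). Thinned to 582635 counts per cell, which left out 14 of all cells, the shares were 24 of 30 apical IHCs (80.0%, exact binomial interval 61.4 to 92.3), 18 of 32 middle IHCs (56.2%, 37.7 to 73.6) and 6 of 19 basal IHCs (31.6%, 12.6 to 56.6). In thinned OHCs all 19 apical and all 18 middle cells and 6 of 7 basal cells had a count. The step from apex to middle in pooled IHCs had a log2 difference of -1.48 in the higher numbers and 0.22 in the lower. In the lower numbers middle IHC 32 alone held 82.6% of the Ocm counts of the 21 middle cells, whereas their median (0.113 CPM) and their thinned share with a count (26.3%) were below those of the apex (6.75 CPM and 57.1%). The log2 difference from apex to base was -7.07 in the higher and -6.16 in the lower numbers.

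In OHCs the difference between base and apex was small in the sums, and its size depended on the cells. The log2 difference was -0.29, against a median of -0.72 over all 15004 genes, of which 17.4% were 2-fold or more higher and 47.6% lower in the base. Without basal OHC 3 it was -4.25, and between the median cells, each scaled by the TMM factor of its group, -6.46. Between middle and apical OHCs the log2 difference was -0.71, with -0.41 in the higher and -1.95 in the lower numbers.

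**Figure D2:**
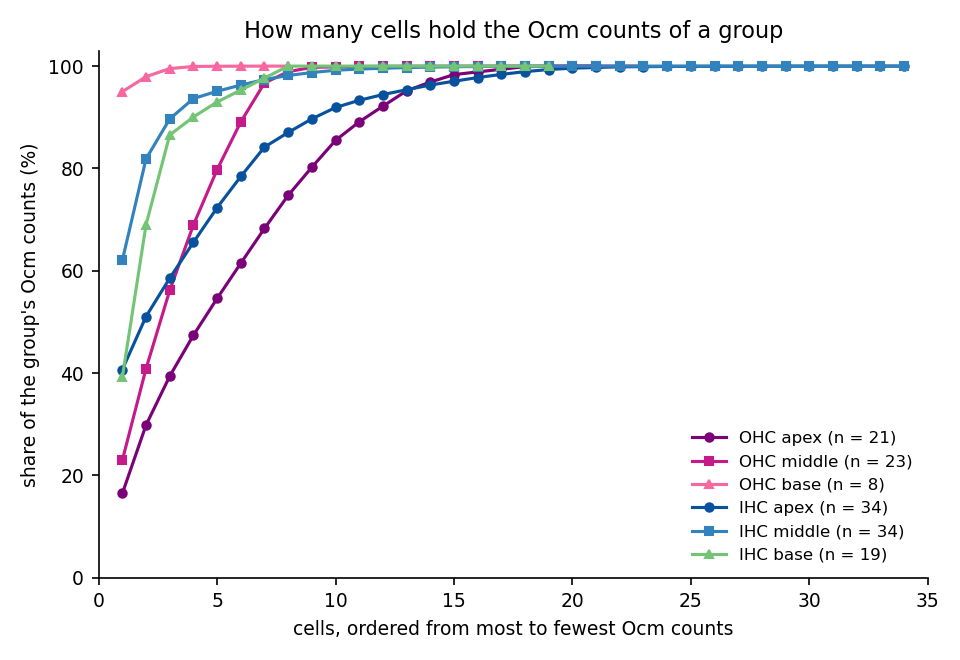
The curves add up the Ocm counts of each group, from the cell with most to the cell with fewest (x axis, rank of the cell; y axis, percent of the group's Ocm counts). Basal OHCs reach 95% with 1 cell and middle IHCs 62.1%, while the first cell of the apical OHCs holds 16.5% and their first 3 cells hold 39.4%.

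The 2 series of title numbers differed in Ocm in most groups. Apical OHCs were nearly level, with medians of 4619 CPM in 12 cells of the higher numbers and 4711 in 9 cells of the lower, although the lower numbers spread wider (30.8 to 19865 against 2257 to 7216). In middle OHCs the 7 cells of the higher numbers ran from 541 to 8930 CPM with a median of 4450, and the 16 of the lower numbers from 0 to 6962 with a median of 36.5. Just 1 of those 16, cell 20, lay above the median of the higher numbers. Depth moved with this split: median totals in middle OHCs were 10532521 in the higher and 762541 in the lower numbers, and the part of depth in the result was not tested. All 7 cells of the higher and all 11 of the lower numbers that could be thinned to 582635 counts had an Ocm count. In basal OHCs the sums went the other way, with 0.165-fold the level in the 2 cells of the higher numbers (0.156 to 0.174) as in the 6 of the lower, which include OHC 3, and the higher number was above in 33.3% of pairs.

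The IHCs showed the same order of the series at lower levels. Among apical IHCs, 17 cells of the higher numbers ran from 33.4 to 1989 CPM with a median of 198, and 17 of the lower numbers from 0 to 2530 with a median of 6.75. The pooled level was 5.33-fold higher in the higher numbers (5.15 to 5.52), and a cell of the higher numbers exceeded one of the lower in 85.1% of pairs. Among middle IHCs the medians were 23.4 CPM (13 cells) and 0.113 CPM (21 cells), with a pooled ratio of 1.63 (1.59 to 1.68), and the higher number was above in 86.8% of pairs. Thinned to the same depth, every one of 16 apical and 13 middle IHCs of the higher numbers had an Ocm count, against 8 of 14 (57.1%, 28.9 to 82.3) and 5 of 19 (26.3%, 9.15 to 51.2) of the lower numbers. Basal IHCs had counts in 3 of 7 and 3 of 12 thinned cells, with medians over all cells of 0.562 and 0 CPM. The labels do not say what sets the series apart, and its part in these levels was not tested. The pooled difference between the types kept its direction in both: 3.65 and 5.75 on the log2 scale in the apex, 4.72 and 3.57 in the middle, 7.38 and 11.47 in the base (higher and lower numbers).

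**Figure D3:**
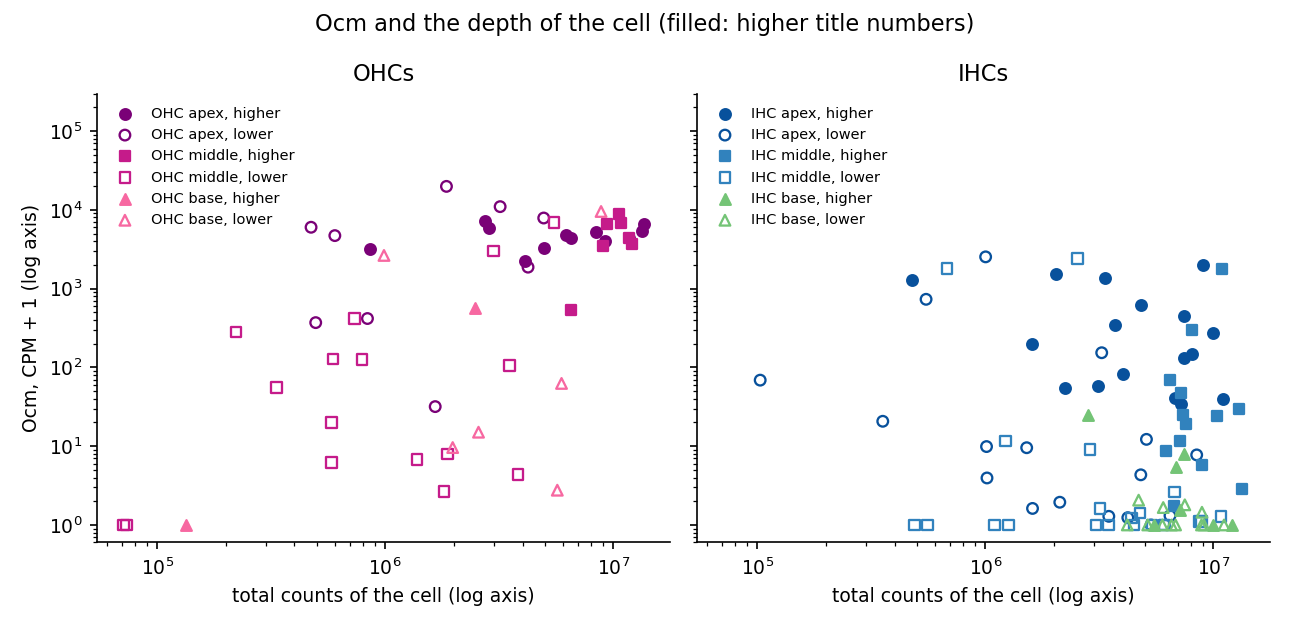
Ocm per cell (CPM + 1, logarithmic y axis) is plotted against total counts of the cell (logarithmic x axis), OHCs on the left and IHCs on the right; filled symbols are the higher title numbers. Middle OHCs of the higher numbers lie at the deep end with 541 CPM or more. Spearman's rho was 0.56 over the 52 OHCs and -0.11 over the 87 IHCs.

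Across cells, the relation of Ocm to depth differed from group to group. Spearman's rho of log2(CPM + 1) with log2 total counts was 0.56 over 52 OHCs, with 0.19 in apical, 0.74 in middle and 0.40 in basal OHCs. It was -0.11 over 87 IHCs, with -0.05 in apical, 0.37 in middle and -0.24 in basal IHCs. These correlations describe cells of shared groups and carry no p-value.

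The IHCs with the highest Ocm did not carry a common set of OHC genes. Levels of 1000 CPM or more were reached by 8 IHCs: apical cells 4, 5, 8, 9 and 19 and middle cells 7, 31 and 32. Apical IHC 19, the highest at 2530 CPM, had 11901 CPM of Otof, no Slc26a5 count, and 41.9 CPM in sum over 13 OHC markers other than Ocm, of which 3 had a count. Middle IHC 32, at 2421 CPM of Ocm, was alike, with 5036 CPM of Otof, no Slc26a5 and 13.8 CPM over the OHC markers. Both cells are of the lower title numbers, where OHCs high in Ocm could also be low in these markers. The 6 apical OHCs of that series with 1000 CPM or more of Ocm had 36.6 to 8142 CPM over the 13 markers. Apical IHCs 4 and 5, described below, are of the higher numbers. Middle IHC 7 had 1761 CPM of Ocm, 19207 of its 10908878 counts, with 4550 CPM of Otof, no Slc26a5 count and 0.0917 CPM of Ikzf2, though its 13 OHC markers summed to 663 CPM. In contrast, apical IHCs 4 and 5, with 1989 and 1373 CPM of Ocm, had Slc26a5 at 246 and 318 CPM and Ikzf2 at 116.8 and 315 CPM, beside 3296 and 1096 CPM of Otof. Apical IHC 8 (1523 CPM of Ocm) is 1 of the 9 cells whose markers went against the label, with 3978 CPM of Ikzf2 and 0.984 CPM of Otof. Leaving out the 9 cells that went against their labels changed pooled Ocm of apical IHCs from 298 to 284 CPM and of middle IHCs from 139.7 to 141.5 CPM.

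Over whole groups, the OHC markers in IHCs followed the same order as Ocm. The 13 markers summed to a median of 86.0 CPM per cell in apical IHCs (2.16 to 13433), 36.96 in middle IHCs (0.345 to 1741) and 5.11 in basal IHCs (0.339 to 626), and all 13 had a count in each of the groups. Between base and apex of the IHCs, 9 of the 13 were 2-fold or more lower in the base and 1 was higher, beside 31.5% of all genes lower and 26.5% higher. Slc26a5 was at 48.3, 1.44 and 0.0608 CPM and Ikzf2 at 160, 50.5 and 2.09 CPM in pooled apical, middle and basal IHCs. Within groups, rho of Ocm with the summed OHC markers was 0.61 over 34 apical IHCs, 0.60 over 34 middle IHCs and 0.45 over 19 basal IHCs, while rho with the summed IHC markers was -0.16, 0.30 and 0.04. The marker sums, like Ocm, differed between the series of title numbers. In apical IHCs they ran from 10.5 to 13433 CPM in the higher and from 2.16 to 197 CPM in the lower numbers. In middle IHCs they ran from 28.95 to 1741 CPM in the higher and from 0.345 to 246 CPM in the lower. These rho were not taken within a series, and its part in them was not tested. The part of RNA from OHCs in the Ocm of IHCs was not tested.

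**Figure D4:**
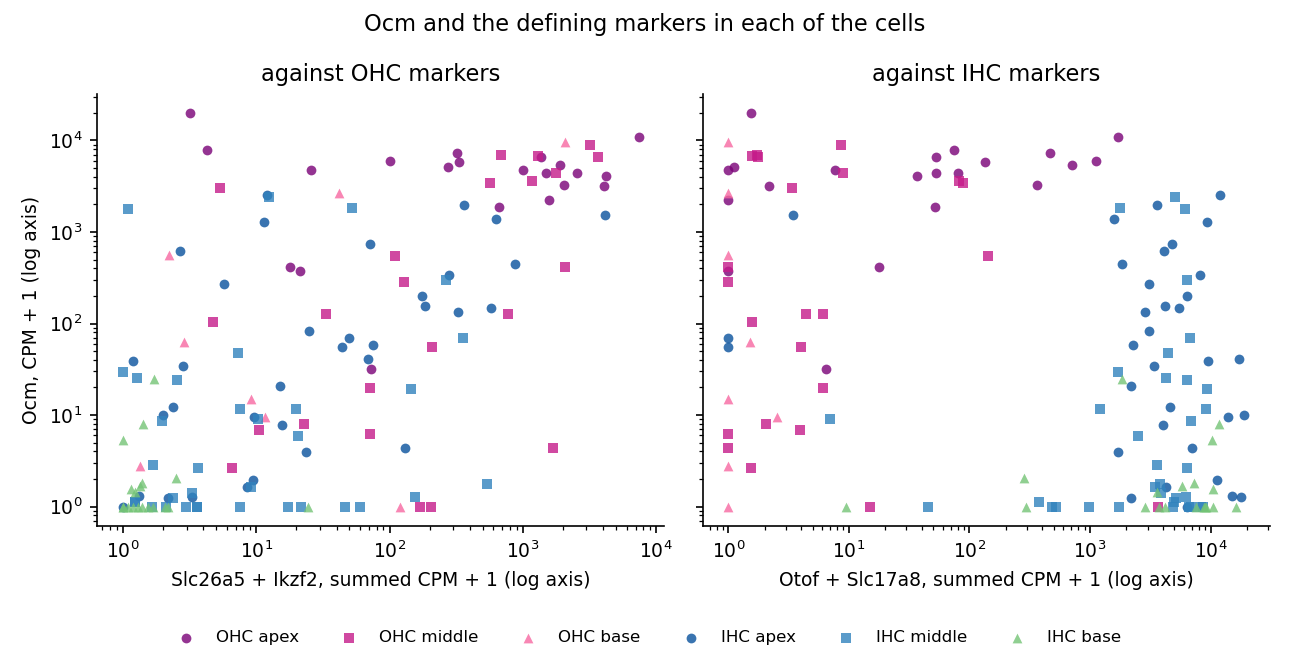
Ocm (CPM + 1, logarithmic y axis) in each cell is set against the summed CPM + 1 of Slc26a5 and Ikzf2 (left) and of Otof and Slc17a8 (right), both on logarithmic axes, with colour and shape for type and region. Apical IHC 19 and middle IHC 32 show Ocm of 2530 and 2421 CPM at 20 CPM or less of both OHC markers, and apical OHC 19 has the highest Ocm, 19865 CPM.

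Most OHCs under 100 CPM of Ocm were also low in other hair cell genes, as were some with more Ocm. Of the 9 middle OHCs under 100 CPM of Ocm, 7 had a summed level of 12 general hair cell genes (such as Myo7a, Pou4f3 and Tmc1) of 4.27 to 420 CPM, while cells 16 and 9 had 1147 and 9766 CPM. Cell 9 had 3.40 CPM of Ocm beside 1679 CPM of Ikzf2 in 3819016 counts, so that little Ocm stood beside a marker of its type. The 5 basal OHCs under 100 CPM of Ocm had 5.57 to 71.4 CPM of the general genes, against 3287 and 1882 CPM in basal OHCs 3 and 5. Basal OHC 2 (564 CPM of Ocm) had 135 CPM of them, and apical OHC 19, the cell with most Ocm (19865 CPM), had 113.8 CPM. Blood and immune markers summed to 3043 to 30358 CPM, and markers of mesenchyme and bone to 2260 to 32105 CPM, in the 8 basal OHCs, with pooled sums of 19587 and 23132 CPM against 1608 and 1605 in apical OHCs. All 12 blood and immune markers had a count in apical OHCs and 11 of 12 in basal ones, where Cx3cr1 was at 0. The part of other cells' RNA in basal Ocm was not tested. Over the 23 middle OHCs, rho of Ocm was 0.72 with Slc26a5 and 0.33 with Ikzf2. Over the 21 apical OHCs, where nearly all cells were high, it was -0.12 and -0.07. In the middle OHCs rho of Ocm with log2 total counts was 0.74. The part of depth and of title-number series in the marker correlations was not tested.

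Summed over cells, Ocm ranked high among the transcripts of OHCs, though not in every cell. It took 0.528% of all counts in apical, 0.431% in middle and 0.310% in basal OHCs, ranks 19, 18 and 63 among genes by count, the last with 95% of the Ocm counts from OHC 3. The median of its rank within single cells was 24 in apical, 283 in middle and 629 in basal OHCs. In IHCs it took 0.0310%, 0.0155% and 0.000125% of counts, ranks 513, 1178 and 11200. Cell by cell, Ocm was among the 20 highest genes in 15 of 52 OHCs and in 0 of 87 IHCs, and its best rank was 6 in middle OHCs and 66 in apical IHCs.

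In the pooled counts, parvalbumin, the paralog, ran the other way along the IHCs. Per kilobase of exon, pooled Pvalb was 33.5, 171 and 536 CPM in apical, middle and basal IHCs, and Ocm 407, 191 and 1.77. Hence Ocm was 12.1-fold above Pvalb in apical IHCs, 1.11-fold in middle IHCs, and Pvalb was 303-fold above Ocm in basal IHCs. Without middle IHC 7 Pvalb was 2.24-fold above Ocm in middle IHCs. Basal IHC 8 held 55.4% of the Pvalb counts of its group, and without it Pvalb was 134.8-fold above Ocm. In single cells, per kilobase, Ocm exceeded Pvalb in 24 of 34 apical, 9 of 34 middle and 2 of 19 basal IHCs. All pooled OHC groups had more Ocm than Pvalb, with 7354 against 80.0 CPM per kilobase in the apex (91.9-fold), 4494 against 110 in the middle (40.9-fold) and 6021 against 74.1 in the base (81.3-fold). The basal ratio was 4.07-fold without OHC 3 and 177.3-fold without OHC 8, which held 54.1% of the Pvalb counts. Ocm was above Pvalb in 21 of 21 apical, 21 of 23 middle and 6 of 8 basal OHCs. Pvalb was found in all 19 basal IHCs, from 0.561 to 3660 CPM per cell with a median of 61.3. Single IHCs of the higher title numbers ran from 0 to 180 CPM of Pvalb in the apex. Their range was 9.32 to 691 CPM in the middle and 7.43 to 362 in the base, with no rise from middle to base. In the lower numbers the ranges were 0 to 266, 0 to 363 and 0.561 to 3660 CPM.

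As a list, other EF-hand genes did not share the pattern of Ocm, though single members were higher in OHCs of some regions. Of 47 EF-hand buffers and sensors listed, 46 had a line and 38 reached 5 CPM in some group. In the apex 9 of the 38 were 2-fold or more higher in OHCs and 14 lower, beside 28.6% and 32.4% of all genes. The median log2 difference was 0.22, against -0.02 over all genes. In the middle 9 were higher and 11 lower, beside 20.7% and 29.7% of all genes, with medians of -0.13 and -0.07. In the base 4 were higher and 23 lower, beside 16.1% and 48.9% of all genes, with medians of -1.70 and -0.89. The list thus sat near the background in the apex and middle, and in the base had more lower and fewer higher members than the background. Sri (sorcin, a calcium-dependent regulator of calcium release) was higher in apical OHCs, at 503 against 35.8 CPM, and in the middle, at 333 against 140, but not in the base, at 17.9 against 37.6. Necab2, Scgn and Caln1 were the other members with the largest mean OHC ratios. Necab2 differed by 5.29, 1.72 and 0.56 on the log2 scale in apex, middle and base, with counts in 4, 3 and 1 OHCs. In the apex Caln1 differed by 6.82 and Scgn by 3.52, with counts in 3 and 2 OHCs. Necab2 and Caln1 thus passed the 4.17 of Ocm there. Scgn was under 2-fold apart in the middle and base, as Caln1 was in the middle, and Caln1 was lower in basal OHCs. Calb2 leaned to IHCs in the apex, at 108.9 CPM in OHCs against 708 in IHCs, and in the middle, at 70.1 against 259, and was under 2-fold apart in the base, at 224 against 290. Calb1 (calbindin) differed by region, with 483 CPM in middle IHCs, 7.37 in apical and 0.433 in basal IHCs, and 60.1 CPM or less in the OHC groups. The middle level lay mostly in 1 series of title numbers. Calb1 ran from 43.5 to 1945 CPM in the 13 middle IHCs of the higher numbers. In the 21 of the lower numbers it ran from 0 to 93.2 CPM. Cabp2 and Cabp7, calcium sensors of the same superfamily, were 2-fold or more lower in OHCs of the middle and base, and in the apex only Cabp7 was.

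**Figure D5:**
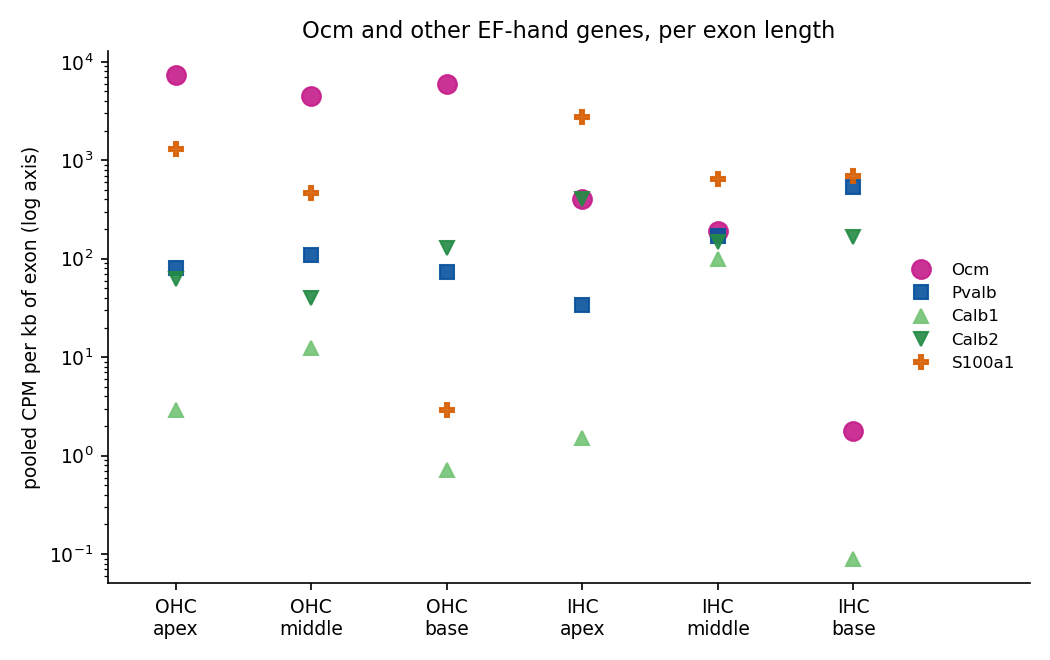
Pooled CPM per kilobase of exon (logarithmic y axis) of Ocm, Pvalb, Calb1, Calb2 and S100a1 is shown for the 6 groups on the x axis, 1 point per gene and group, with no error bars because each group is 1 sample. Ocm is the highest of these 5 genes in each OHC group, at 7354, 4494 and 6021, and in basal IHCs it stands at 1.77 while Pvalb stands at 536.

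The genes whose levels followed Ocm most closely over all cells included several OHC markers. Likeness was Spearman's rho of log2(CPM + 1), over 10383 genes with a count in at least 20% of the cells, whose median rho was 0.04 and whose 95th percentile was 0.21. Slc26a5 ranked first with 0.64, followed by Tmem229a (0.63), Lpin2 (0.60), Lbh (0.58), Srpk2 (0.57), the calcium pump gene Atp2b2 (0.56), Olfm1 (0.52), Ikzf2 (0.51), Isl1 (0.51) and Sri (0.50). Otof and Slc17a8 stood near the other end, at -0.38 and -0.44, ranks 10378 and 10381. Pvalb was at 0.12 and Calb2 at 0.03. These cells share group, series and depth, and rho of the 10 genes with total counts ran from -0.16 for Ikzf2 to 0.46 for Sri. Among the 52 OHCs alone the closest were Smpx (0.69), Pkig (0.68), Tmem229a (0.68), Ppp1cb (0.67) and Acsl4 (0.66), 5 genes whose rho with total counts was itself 0.41 to 0.62. Among the 87 IHCs they were Suco (0.55), Isl1 (0.54), Id2 (0.51), Trim30a (0.50) and S100a13 (0.50), with rho to total counts between -0.08 and 0.22. Isl1, a transcription factor of the developing inner ear, was thus among the closest both over all cells and within IHCs.

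The other OHC markers gave the types the same direction as Ocm in the apex and middle and less so in the base. All 13 were 2-fold or more higher in apical OHCs, beside 28.6% of all genes. Their median log2 difference was 2.88, against 4.17 for Ocm. In the middle 12 of 13 were higher, beside 20.7% of all genes, with a median of 2.89 against 4.55. In the base 6 were higher, 3 lower and 4 under 2-fold, beside 16.1% of all genes higher and 48.9% lower. The median of the markers there was 0.43, against -0.89 over all genes and 10.91 for Ocm. In pooled basal OHCs, Ikzf2 (878 CPM), Bmp3 (714 CPM) and Strip2 (444 CPM) were, like Ocm, within 2-fold of the apex, whereas Slc26a5 was at 34.3 against 697 CPM and Chrna10 at 0.299 against 81.9. Basal OHC 3 held 99.4% of the Ikzf2 counts and 99.2% of the Bmp3 counts of its group, and without it they stood at 6.84 and 7.36 CPM, while Strip2 stood at 501 CPM. Between base and apex of the OHCs, 10 of 13 were 2-fold or more lower in the base and none higher, beside 47.6% of all genes lower and 17.4% higher, with a median log2 difference of -0.72 over all genes.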

How the data were processed

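Single-cell libraries of mouse cochlear hair cells were sequenced on an Illumina instrument, per the labels. Raw counts per gene for every cell were deposited by the authors in 1 table. The submitters' processing notes name Trimmomatic, HISAT2, featureCounts of Subread 1.4.6 and the build GRCm38 (mm10). No source used here states the strand setting, how reads with several matches were treated, or molecular identifiers. Every column matched 1 title, and 0 columns stayed unused. Of 55335 identifiers, 55154 were found in GENCODE M21 when versions were ignored and 54587 with them. Lines with no symbol (181) made up 0.00885% of counts.

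For each group, counts of its cells were added and scaled with TMM factors (edgeR 4.0.16 in R 4.3.3). A difference is the log2 ratio of 2 values of CPM + 1, a scale that understates low genes, and 2-fold was the size called. Values of single cells are CPM of their total counts, with no TMM factor, except that differences between the means or medians of the cells divide them by the TMM factor of their group. Folds have exact conditional intervals, levels exact Poisson and shares Clopper-Pearson intervals, all at 95%. Ocm counts were thinned at random to 582635 per cell, the percentile 10 of the totals. Other scalings (DESeq2 1.42.0 size factors among them), pseudocounts, cell weights and sets of cells were tried, and, after the values were seen, ratios of Ocm to Pvalb without each cell and OHC markers without basal OHC 3. The steps were tested on simulated data.

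Ocm, its lists and its alternatives were chosen with earlier results of these data known. The text names Ocm, defining markers, Pvalb, members of the lists by level or ratio, the 3 nearest protein-coding genes on each side, and the genes most like Ocm: the 10 highest over all cells and the 5 highest in each type, leaving out predicted, ribosomal, mitochondrial and pseudogene symbols. Genes of the OHC marker list in basal OHCs beyond that (Chrna10), and the cells singled out, were chosen after their values were seen. Some genes of the lists are not reported here. Transcript sequences are those of GENCODE M21.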

Additional observations from a re-analysis of the deposited data

Results flagged for a closer look

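Among middle OHCs of the higher title numbers, cell 1 stood apart from the other 6 in Ocm, at 541 CPM against 3457 to 8930. On the log2(CPM + 1) scale its distance to the nearest cell was 0.661 of the range of the 7, above the limit of 0.568 for a set of that size. In CPM, not logged, it was 0.348, below that limit. Cell 1 is also 1 of the 9 cells whose markers went against the label, with 109.4 CPM of Slc26a5 and Ikzf2 and 142 CPM of Otof and Slc17a8. Chance marks about 1 in 20 such sets, and 5 sets of 4 to 10 cells were examined.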

How the results depend on the processing

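The 11 alternatives to the log2 differences of Ocm, beside leaving out single cells, reversed no difference of 2-fold or more, and the differences between the types and between basal and apical IHCs stayed past 2-fold in all 11. The OHC difference between base and apex (-0.29) reached 2-fold, lower in the base, in 4 of 11. Values below are in the order apex, middle and base for the types, then base against apex in IHCs and in OHCs, and those that stayed inside the counting interval are left out. Total counts gave 4.09, 4.79 and 10.43, and -0.77 in OHCs. DESeq2 size factors gave 4.52, 4.78, 11.84, -6.85 and 0.48, and TMM on genes with at least 5 CPM gave 4.26, 4.78, 11.80, -6.82 and 0.72, so the OHC difference changed its sign with both. A pseudocount of 0.1 CPM gave 11.62 in the base and -7.74 in IHCs, and 10 CPM gave 4.13, 4.46, 8.61 and -4.77. The mean of the cells gave 3.94, 3.12, 9.52, -6.80 and -1.21, and their median 6.46, 5.57, 5.78, -5.77 and -6.46. The higher title numbers gave 3.65, 4.72, 7.38 and, in OHCs, -3.35, the lower ones 5.75, 3.57, 11.47, -6.16 and -0.44. Leaving out the cell of the highest total in each group gave 3.97, 4.51, 6.90 and, in OHCs, -4.16. Without the 9 cells that went against their labels, the middle gave 4.60 and OHCs -0.13. The cause was not tested. Leaving out single cells gave 4.08 to 4.82 in the apex (highest without apical IHC 4), 4.24 to 5.89 in the middle (highest without middle IHC 7), 6.96 to 11.23 in the base (lowest without basal OHC 3), -7.35 to -6.38 for IHCs (highest without apical IHC 4), and -4.25 (without basal OHC 3) to 0.053 (without basal OHC 2) for OHCs. No paired analysis was possible because cell numbers only name cells and no result comes from a test. Depth limits the low end: 3 counts correspond to 0.0298 CPM in pooled apical OHCs and 0.0228 CPM in pooled basal IHCs, and 14 cells were too shallow to be thinned.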

Other observations

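Genes that pump, exchange or take up calcium were described beside Ocm as a list of 22, of which 19 reached 5 CPM in some group. In the apex 7 of the 19 were 2-fold or more higher in OHCs and 5 lower, beside 28.6% and 32.4% of all genes. In the middle it was 2 and 6, beside 20.7% and 29.7%, and in the base 3 and 14, beside 16.1% and 48.9%. Atp2b2, the plasma membrane pump of hair bundles, was at 1152 CPM in apical and 1030 CPM in middle OHCs against 542 and 277.5 CPM in IHCs, but at 4.03 CPM in basal OHCs against 50.2 CPM in basal IHCs. Atp2a3, a pump of the endoplasmic reticulum, was at 1275, 1416 and 2218 CPM in apical, middle and basal IHCs and at 1.21, 63.02 and 0.498 CPM in OHCs. Atp2b1 was at 1460, 2544 and 4744 CPM in IHCs and 580, 617 and 135 CPM in OHCs, and Slc24a3, a potassium-dependent exchanger, at 127, 620 and 926 CPM in IHCs and 4.55, 70.6 and 0.896 CPM in OHCs.

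The nearest genes on either side of Ocm on chromosome 5 did not follow its levels over the groups. Ccz1, the closest at 4927 bases, was at 370 CPM in apical OHCs, 10.4 in middle and 0.498 in basal OHCs. In apical, middle and basal IHCs it was at 156, 22.7 and 510 CPM. Its rho with Ocm over all cells was 0.23, just above the 95th percentile of 0.21 over the genes compared. Rsph10b reached 21.1 CPM at most, in basal IHCs, and Lmtk2 40.3 CPM, also in basal IHCs. On the higher side Bhlha15 stayed at 5.93 CPM or less, Tecpr1 was highest in basal IHCs at 357 CPM, and the predicted gene Gm42421 had no count in any group.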
